A study of Mus musculus with 16 samples.

Results

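The lipid-handling genes associated with Trem2-type macrophages are described here as a set of 10: Trem2, Apoe, Lpl, Fabp4, Fabp5, Gpnmb, Plin2, Cd36, Abca1 and Abcg1. They were taken by symbol from the 20200 genes of the deposited count table, and all 10 passed the filter on low counts that left 11998 genes for testing. Expression was measured by bulk RNA sequencing of myeloid cells sorted from the healing tissue where the tendon graft meets bone after anterior cruciate ligament reconstruction (ACLR) in mice. The animals were 12-week-old male mice of the C57BL/6 strain (C57BL/6J in the study's methods) with no added allele. Per the study, mice were anesthetized for surgery and were given buprenorphine against pain afterwards. Cells were harvested on day 1 or day 14 after surgery. CD9+ macrophages were live, Lin-, CD45+, Ly6G-, CD11b+ cells carrying F4/80 and CD9. CX3CR1+ macrophages shared this gate but carried F4/80 and CX3CR1 without CD9. F4/80- cells were CD11b+ and Ly6G- and lacked F4/80, and neutrophils were live, Lin-, CD45+ cells positive for Ly6G and Ly6C. The rare cells that carried both CD9 and CX3CR1 fell in the CD9+ sort. The 4 populations on 2 days gave 8 groups of 2 libraries each, 16 libraries in all. Each library was a pool of cells from 5 to 7 mice, so single animals cannot be compared. With 30 mice behind the 16 libraries, populations of 1 day shared mice. No uninjured tissue was analysed here, and day 1 is the reference throughout.

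Macrophages that clear dead cells take in large amounts of lipid. TREM2 is a surface receptor that binds lipids and lipoproteins and signals through the adaptor encoded by Tyrobp. CD36 is a scavenger receptor that takes up fatty acids and oxidised lipoproteins. Lpl encodes lipoprotein lipase, which frees fatty acids from triglyceride-rich particles, and Fabp4 and Fabp5 encode small proteins that carry fatty acids inside the cell. Plin2 encodes a coat protein of lipid droplets, the form in which neutral lipid is stored. Abca1 and Abcg1 encode transporters that pass cholesterol out of the cell, to lipid-poor apolipoproteins and to high-density lipoprotein particles respectively, and both are known targets of the liver X receptors (LXR). Apoe encodes a secreted apolipoprotein that accepts this cholesterol. Gpnmb encodes a transmembrane glycoprotein of lysosome-rich, lipid-laden macrophages.

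Libraries held 9233952 to 19814119 counts, and levels are given as CPM, the reads of a gene relative to the library total, after TMM scaling, a correction for differences in library composition. A change is called when the Benjamini-Hochberg adjusted p of the edgeR quasi-likelihood test over 11998 genes is under 0.05 and the log2 fold change is at least 1 in size. The libraries were checked against marker lists of 8 genes each. Among the genes of the gates, Cd9 lay at 142 to 184 CPM in CD9+ libraries and 6.5 to 21.1 CPM in CX3CR1+ libraries, while Cx3cr1 lay at 73 to 108 CPM and 133 to 293 CPM. Neutrophils carried more Cd9 RNA than either, at 346 to 678 CPM. The summed macrophage markers reached 970 to 2170 CPM in CD9+ and 1210 to 2030 CPM in CX3CR1+ libraries. The sum was 462 to 464 CPM in day 1 neutrophils, 144 CPM in day 14 neutrophils and 143 to 188 CPM in F4/80- cells. The CD9+ libraries also held markers of other cells. Summed eosinophil markers were 597 to 644 CPM in them on day 1 and 6860 to 11100 CPM on day 14, against at most 121 CPM in every other library. Summed neutrophil markers were 3770 to 11400 CPM in CD9+ and 470 to 1080 CPM in CX3CR1+ libraries. The same sum was 20000 to 24800 CPM in F4/80- cells and 41200 to 82300 CPM in neutrophils. Summed platelet markers, 7 of 8 listed, were 95.4 to 230 CPM in CD9+ and 2.27 to 44.7 CPM in CX3CR1+ libraries. Their sum was 67.8 to 79.3 CPM in F4/80- cells and 3.6 to 10.5 CPM in neutrophils.

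**Figure D1:**
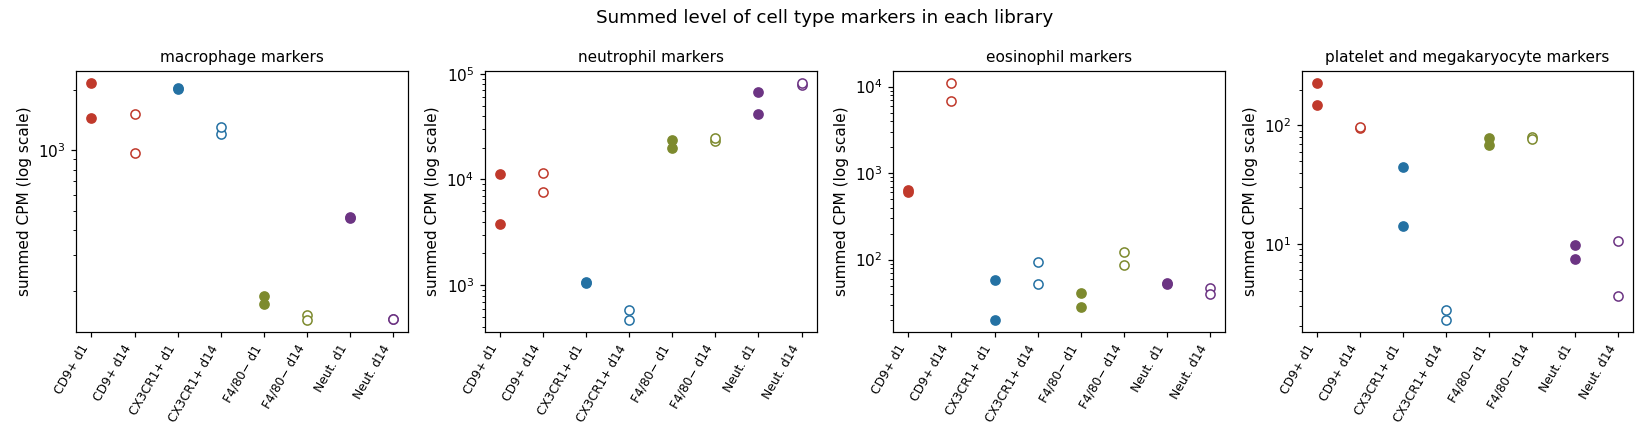
Summed level in CPM (log scale) of macrophage, neutrophil, eosinophil and platelet marker lists in each of the 16 libraries, with 1 point per library, filled for day 1 and open for day 14. The eosinophil sum of the CD9+ libraries stands at 6860 and 11100 CPM on day 14, and the neutrophil sum separates the CD9+ libraries (3770 to 11400 CPM) from the CX3CR1+ libraries (470 to 1080 CPM).

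The replicates of the CD9+ groups differed in these markers and in the lipid-handling genes together. On day 14 all 10 genes were higher in replicate 2, with a median ratio of replicate 2 to replicate 1 of 1.8. In the same pair 8 of 8 macrophage markers, 7 of 8 eosinophil markers and 1 of 8 neutrophil markers were higher in replicate 2, as were 50.3% of all genes tested. On day 1, 9 of 10 genes, 7 of 8 macrophage markers and 0 of 8 neutrophil markers were higher in replicate 2, with a median ratio of 1.25 for the 10 genes. The day 1 CD9+ pair was also the least alike of the 8 groups, with a correlation of log2 CPM of 0.935 across genes against 0.976 to 0.988 in the others. In bulk samples, fewer cells of a type and less RNA per cell cannot be told apart, and the part of these differences in the results below was not tested beyond leaving out each library.

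By group means, 9 of the 10 genes were highest in a macrophage group. Plin2 was highest in day 1 neutrophils, where the ranges of Abca1 (362 to 550 CPM) and Abcg1 (67.4 to 68.4 CPM) also reached into or near those of day 1 CD9+ macrophages (335 to 593 CPM and 68.2 to 75.9 CPM). Per kilobase of exon, Apoe was the most abundant in day 1 CD9+ macrophages at 879 CPM per kilobase, followed by Plin2 at 129 and Abca1 at 44.8. Fabp4 was the least abundant there, at 0.181 CPM per kilobase. Over the 8 group means, the 45 pairs among the 10 genes had Pearson correlations of log2 CPM from 0.02 to 0.98 with a median of 0.74. These values describe 8 points that share populations and depth and carry no test.

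**Figure D2:**
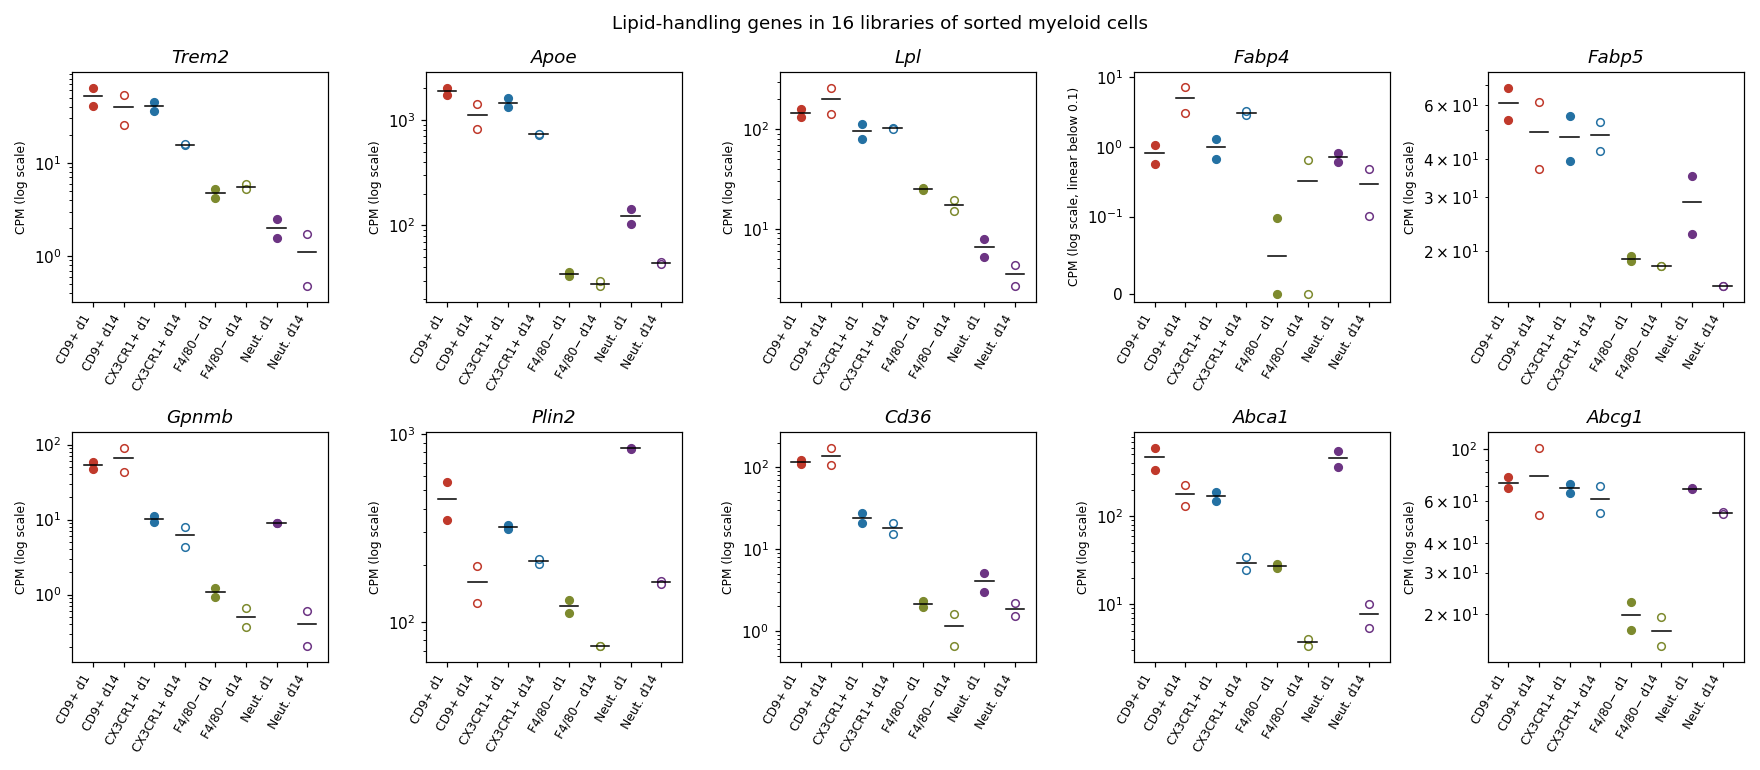
Level of each of the 10 genes in CPM on a log scale (for Fabp4, linear below 0.1 so that libraries at 0 can be shown) in the 8 groups, with 1 point per library, filled for day 1 and open for day 14, and a bar at the mean of the 2 libraries. Abca1 falls from day 1 to day 14 in each of the 4 populations, and Plin2 has its highest points, 836 and 842 CPM, in day 1 neutrophils.

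The first comparison asked how the receptors and carriers of lipid differed between the macrophage populations. The scavenger receptor Cd36, Gpnmb and the cholesterol transporter Abca1 were higher in CD9+ than in CX3CR1+ macrophages on both days. Trem2 was higher on day 14, and the other 6 genes were not called on either day.

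Trem2 (ENSMUSG00000023992, mm10 chromosome 17, 48346401 to 48354147, plus strand) was measured at 40.9 and 64.1 CPM in the 2 day 1 CD9+ libraries and at 45.2 and 36.2 CPM in the day 1 CX3CR1+ libraries. These ranges overlapped. On day 14 it stood at 25.3 and 54.0 CPM in CD9+ and at 15.6 and 15.8 CPM in CX3CR1+ macrophages, and all CD9+ values lay above. The log2 difference on day 14 was 1.34 (SE 0.35, edgeR adjusted p = 0.0093), while on day 1 it was 0.36 (SE 0.33, edgeR adjusted p = 0.5). The day 14 call was lost without CD9+ replicate 2, where the difference was 0.68 (edgeR adjusted p = 0.22). It was also lost without CX3CR1+ replicate 1 (1.33, edgeR adjusted p = 0.065) or replicate 2 (1.33, edgeR adjusted p = 0.068). Trem2 was far lower outside the macrophage gates, at 4.22 to 5.89 CPM in F4/80- cells and 0.482 to 2.48 CPM in neutrophils. On day 14, 4 of 8 macrophage markers were also higher in CD9+ than in CX3CR1+ macrophages and 0 lower, with a median log2 difference of 1.77. On day 1, 0 of the 8 were called, with a median of -0.06. The part of these markers in the Trem2 difference was not tested.

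Cd36 (ENSMUSG00000002944, mm10 chromosome 5, 17781690 to 17888801, minus strand) separated the macrophage populations on both days. It was measured at 109 and 122 CPM in day 1 CD9+ and at 21.04 and 27.44 CPM in day 1 CX3CR1+ libraries. On day 14 it reached 106 and 173 CPM in CD9+ and 15.4 and 21.2 CPM in CX3CR1+ libraries. All 4 CD9+ values were above all 4 CX3CR1+ values. The log2 difference was 2.25 (SE 0.28, edgeR adjusted p = 5.3e-05) on day 1 and 2.93 (SE 0.29, edgeR adjusted p = 2.5e-06) on day 14. Cd36 is also expressed by platelets, whose summed markers moved with this difference, and its level was at most 5.18 CPM in neutrophils and 2.34 CPM in F4/80- cells. Pf4, a defining platelet marker, lay at 91.9 and 149 CPM in day 1 and 39.6 and 32.8 CPM in day 14 CD9+ libraries, against 10.1 and 30.9 CPM and then 0.61 and 0.928 CPM in CX3CR1+ libraries. Of 3 platelet markers tested, 2 were called higher in CD9+ macrophages and 0 lower on each day. Ppbp lay at 27.4 and 43.8 CPM in day 1 and 1.92 and 1.01 CPM in day 14 CD9+ libraries. Gp9, Gp1ba, Gp6 and Treml1 were at no more than 3.7 CPM in these libraries. Itga2b lay at 26.9 to 62.2 CPM in them and at 63.4 to 76 CPM in F4/80- cells. The part of platelet markers in the Cd36 difference was not tested.

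Gpnmb (ENSMUSG00000029816, mm10 chromosome 6, 49036546 to 49070929, plus strand) had the largest fitted difference between the macrophage populations among the 10 genes on both days. CD9+ libraries measured 47.8 and 58.2 CPM on day 1 and 42.8 and 90.2 CPM later. In the CX3CR1+ libraries the day 1 values were 9.27 and 11.1 CPM and those of day 14 were 4.27 and 8.08 CPM. The populations did not overlap in either comparison. The log2 difference was 2.38 (SE 0.33, edgeR adjusted p = 0.00018) on day 1 and 3.43 (SE 0.36, edgeR adjusted p = 4.5e-06) on day 14. Gpnmb is also expressed by osteoclasts, the bone-resorbing cells, and most osteoclast markers moved with the difference. Of 6 tested, 4 were called at the first time and 6 at the second, each higher in CD9+ macrophages. The sums were 200 to 427 CPM against 16.9 to 30.8 CPM in CX3CR1+ libraries. Mmp9, 1 of these markers, gave 83.2 to 186 CPM of the CD9+ sums, and neutrophils held it at 4130 to 6430 CPM. The sum was 4140 to 6430 CPM in neutrophils, where Gpnmb was at most 9.07 CPM. In the day 1 sort that was neither macrophage nor neutrophil, the sum was 410 to 555 CPM and Gpnmb at most 1.24 CPM. On day 1 Ocstamp went the other way, at 3.39 and 2.85 CPM in CD9+ and 5.01 and 5.75 CPM in CX3CR1+ libraries. Ctsk, the osteoclast protease cathepsin K, lay at 32.1 to 129 CPM in CD9+ and at 0.261 to 3.95 CPM in CX3CR1+ libraries. The part of these markers in the differences of Gpnmb and the other genes was not tested.

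Lpl (ENSMUSG00000015568, mm10 chromosome 8, 68880491 to 68907448, plus strand) was measured at 132 and 159 CPM in day 1 CD9+ libraries and at 79.8 and 113 CPM in day 1 CX3CR1+ libraries. On day 14 the values were 142 and 261 CPM against 104 and 100.1 CPM. The CD9+ values lay above on both days, but the log2 differences, 0.59 (SE 0.25, edgeR adjusted p = 0.13) and 0.99 (SE 0.26, edgeR adjusted p = 0.0095), did not meet both limits of a call. Without CD9+ replicate 1 the day 14 difference was 1.36 and met them (edgeR adjusted p = 0.0012). In neutrophils Lpl was at 2.68 to 7.8 CPM.

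The fatty acid carriers did not separate the macrophage populations. Fabp5 (ENSMUSG00000027533, mm10 chromosome 3, 10012548 to 10016607, plus strand) was measured at 37.1 to 68.5 CPM in the 4 CD9+ libraries and at 39.4 to 55.2 CPM in the 4 CX3CR1+ libraries. The log2 difference was 0.37 (SE 0.24) on day 1 and 0.04 (SE 0.25) on day 14. Fabp4 (ENSMUSG00000062515, mm10 chromosome 3, 10204088 to 10208576, minus strand) was low throughout and passed the filter through its day 14 macrophage groups, with 8 and 10 counts in the day 1 and 32 and 71 counts in the day 14 CD9+ libraries. The CX3CR1+ libraries had 30 and 13 counts at the first time and 33 and 36 at the second. The log2 difference was -0.34 (SE 0.9) on day 1 and 0.72 (SE 0.79) on day 14, and an error of this size leaves differences of several fold undetectable at this depth.

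Apoe (ENSMUSG00000002985, mm10 chromosome 7, 19696109 to 19699188, minus strand) was abundant in both macrophage populations. It was measured at 2024 and 1736 CPM in day 1 CD9+ libraries and at 1605 and 1314 CPM in day 1 CX3CR1+ libraries. On day 14 the values were 829 and 1412 CPM against 722 and 736 CPM. The log2 difference of 0.62 on day 14 (SE 0.21, edgeR adjusted p = 0.037) was under the size needed for a call, and that of 0.37 on day 1 (SE 0.21) had an edgeR adjusted p of 0.26.

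The cholesterol transporters behaved differently from each other. Abca1 (ENSMUSG00000015243, mm10 chromosome 4, 53030787 to 53159895, minus strand) was measured at 335 and 593 CPM in day 1 CD9+ libraries and at 149 and 187 CPM in day 1 CX3CR1+ libraries. On day 14 it stood at 129 and 228 CPM in CD9+ and at 24.7 and 34.1 CPM in CX3CR1+ libraries. The CD9+ values were above on both days. The log2 difference was 1.47 (SE 0.31, edgeR adjusted p = 0.0045) on day 1 and 2.61 (SE 0.33, edgeR adjusted p = 2.6e-05) on day 14. The day 1 call was lost without CD9+ replicate 2 (1.0, edgeR adjusted p = 0.031) and without CX3CR1+ replicate 1 (1.29, edgeR adjusted p = 0.066). Abcg1 (ENSMUSG00000024030, mm10 chromosome 17, 31057698 to 31115777, plus strand) was measured at 52.7 to 101 CPM in CD9+ and at 53.4 to 71.2 CPM in CX3CR1+ libraries. Its log2 differences were 0.08 (SE 0.24) and 0.32 (SE 0.24), and that of day 1 turned to -0.17 with scaling by library size only. An annotated ribosomal RNA gene lies within Abcg1, the only one of the 10 loci that another annotated gene overlaps.

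Plin2 (ENSMUSG00000028494, mm10 chromosome 4, 86648386 to 86670060, minus strand) was measured at 347 and 558 CPM in day 1 CD9+ and at 329 and 311 CPM in day 1 CX3CR1+ libraries. On day 14 the order of the means was the opposite, with 125 and 199 CPM in CD9+ and 204 and 215 CPM in CX3CR1+ libraries. Neither difference was called, at 0.5 (SE 0.2, edgeR adjusted p = 0.12) and -0.37 (SE 0.21, edgeR adjusted p = 0.21) on the log2 scale.

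In the count over the set, 3 of 10 genes were higher and 0 lower in CD9+ than in CX3CR1+ macrophages on day 1, where 6.36% of all genes tested were called higher and 1.88% lower. On day 14, 4 of 10 were higher and 0 lower, against 9.65% and 4.55% of all genes. The median log2 difference of the 10 was 0.43 on day 1 and 0.85 on day 14, where the median of all genes was 0.04 and 0.006. On day 1, scaling by library size only moved the median of all genes by -0.24 and the higher share of all calls from 77.2% to 55%.

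**Figure D3:**
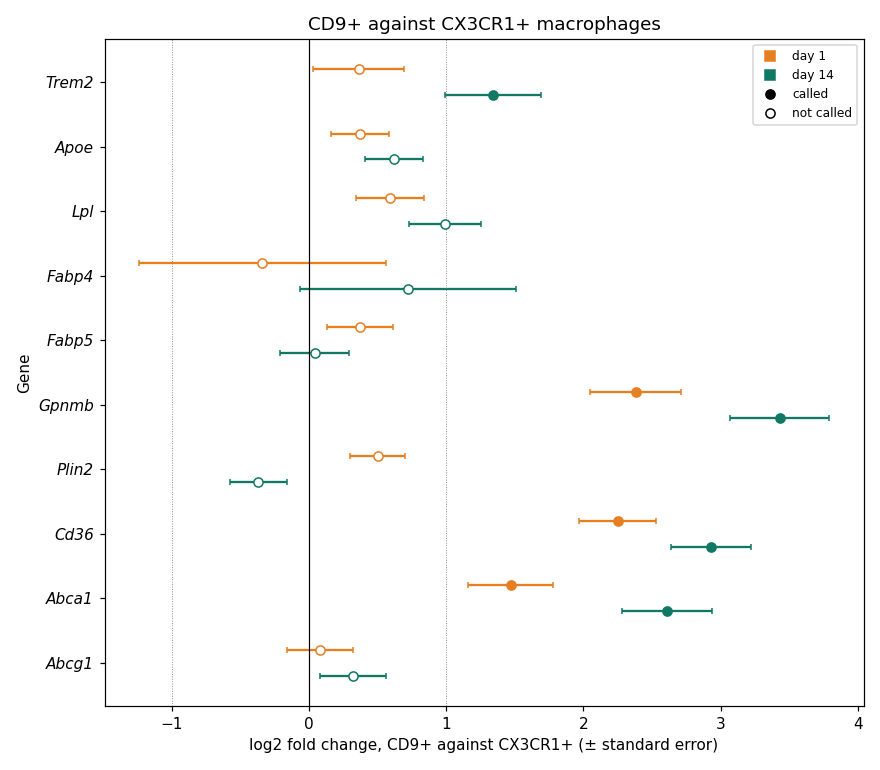
Log2 fold change of each gene in CD9+ against CX3CR1+ macrophages on day 1 and day 14, with bars of 1 standard error and filled points where the difference was called. Gpnmb, Cd36 and Abca1 are called on both days, Trem2 on day 14, and Abcg1, Fabp5, Fabp4, Plin2, Apoe and Lpl on neither.

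Other genes of the same pathways were counted from fixed lists. Of 14 genes of lipid droplet storage and lipolysis, 13 were tested and 5 were higher in CD9+ macrophages on each day, with 0 lower, beside 6.36% and 9.65% of all genes called higher. Mgll, the monoglyceride lipase, was measured at 9.48 and 6.34 CPM in day 1 CD9+ libraries against 0.132 and 0.209 CPM in CX3CR1+ libraries (log2 difference 5.5, SE 0.36). G0s2, an inhibitor of the lipase encoded by Pnpla2, differed by 4.3 (SE 0.2) on day 1 and 4.16 (SE 0.19) on day 14. Hilpda, a lipid droplet protein induced by low oxygen, differed by 2.11 (SE 0.35) on day 1. Dgat1, an enzyme of triglyceride synthesis, differed by 1.79 (SE 0.19) on day 1 and 2.42 (SE 0.19) on day 14. Neutrophils carried more G0s2 (548 to 730 CPM), Mgll (52.4 to 85.4 CPM) and Dgat1 (179 to 574 CPM) than CD9+ macrophages, whose libraries also held neutrophil markers. The part of these markers in the difference was not tested. F4/80- cells held Mgll at 11.2 to 16.4, G0s2 at 29.4 to 42.4, Dgat1 at 72.8 to 89.2 and Hilpda at 2.11 to 7.74 CPM. Of the 13 tested genes, CD9+ macrophages had 1 higher and 1 lower than F4/80- cells on day 1, and 0 and 0 on day 14. Against neutrophils, 0 were higher and 7 lower on day 1, and 1 and 8 on day 14. The shares of all genes in these comparisons are given further below.

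Of all genes tested, 6.36% were called higher and 1.88% lower in CD9+ than in CX3CR1+ macrophages on day 1, and 9.65% and 4.55% on day 14. Among 12 further uptake receptors, 10 were tested. Of these, 3 were higher and 0 lower in CD9+ macrophages on day 1, while the counts were 4 and 1 on day 14. The higher ones then included Stab1, a scavenger receptor (4.81, SE 0.43), and Olr1, the receptor for oxidised low-density lipoprotein (4.17, SE 0.3). Slc27a1, a fatty acid transport protein, differed by 2.68 (SE 0.35) and Slc27a4, of the same family, by 2.22 (SE 0.14). Neutrophils, whose markers the CD9+ libraries also held, carried Olr1 at 128 to 323 CPM and Slc27a4 at 397 to 496 CPM, but Slc27a1 at no more than 1.05 CPM and Stab1 at 5.04 to 45.7 CPM. Of 14 genes of TREM2 signalling and its usual companions, 13 were tested, with 2 higher on day 1 and 4 higher on day 14 and 0 lower on either day. These were led on day 14 by Cd63, a tetraspanin of lysosomes and granules (6.05, SE 0.26), and Spp1, which encodes osteopontin (4.47, SE 0.26). Cd63 lay at 141 to 193 CPM in neutrophils and Spp1 at 31.4 and 33.0 CPM in those of day 14, and the part of neutrophil markers in these differences was not tested. Tyrobp, the adaptor through which TREM2 signals, was not called, at -0.83 (SE 0.16, edgeR adjusted p = 0.00094) on day 14.

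Of 14 LXR and PPAR receptors and further LXR targets, 13 were tested, with 0 called on day 1. On day 14, 2 were higher and 1 was lower, beside 9.65% and 4.55% of all genes. Pltp, the phospholipid transfer protein, was higher by 2.86 (SE 0.35), and Nr1h3, which encodes LXR alpha, by 1.58 (SE 0.52, edgeR adjusted p = 0.035). Ppard, a fatty acid receptor, was lower by the fitted value of -1.02 (SE 0.27). Of 12 genes of lysosomal lipid breakdown, all tested, 0 were called on day 1 and 3 were lower in CD9+ macrophages on day 14, namely Gm2a, Psap and Npc2, by -1.25, -1.14 and -1.03 on the log2 scale. Of 12 genes of fatty acid oxidation, 0 were called on either day.

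The second comparison asked which of the 10 genes changed from day 1 to day 14 within each population. Abca1 fell in all 4 populations. Plin2 fell in CD9+ macrophages and neutrophils, Apoe in CX3CR1+ macrophages and neutrophils, Trem2 in CX3CR1+ macrophages and Gpnmb in neutrophils. Fabp4 was called higher in CD9+ macrophages, with the limit given below.

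In CD9+ macrophages 2 genes fell and 1, Fabp4, was called higher, where 4.75% of all genes were called higher and 3.48% lower. Plin2 fell by 1.48 on the log2 scale (SE 0.21, edgeR adjusted p = 0.00029), with no overlap between days. Abca1 fell by 1.38 (SE 0.31, edgeR adjusted p = 0.0068), and its day 14 libraries, at 129 and 228 CPM, lay below its day 1 libraries, at 335 and 593 CPM. That call was lost without day 1 replicate 2 (-0.91, edgeR adjusted p = 0.053) and without day 14 replicate 1 (-1.0, edgeR adjusted p = 0.099). The Fabp4 value was 2.68 (SE 0.89, edgeR adjusted p = 0.049), from 18 to 103 counts over 2 libraries each. As Fabp4 entered the test only through its day 14 macrophage groups, this direction is a description and not independent evidence of a rise. The ratio of these counts after scaling was 6.66, with an exact 95% interval of 4.01 to 11.7 that covers counting error only. The call was lost with a replicate block (2.56, edgeR adjusted p = 0.068) and when any of the 4 libraries was left out, with differences of 1.95 to 3.19 and edgeR adjusted p from 0.06 to 0.27. Summed eosinophil markers rose in the same libraries. Apoe had a difference of -0.75 (SE 0.21, edgeR adjusted p = 0.022), under the size needed for a call, and -1.18 without day 14 replicate 2, which met both limits (edgeR adjusted p = 0.003).

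The remaining 6 genes, Trem2, Lpl, Fabp5, Gpnmb, Cd36 and Abcg1, were not called in CD9+ macrophages, with differences from -0.4 to 0.47. When each library was left out in turn, the sign of all 6 depended on which of the day 14 replicates was kept. The fit to the 4 CD9+ libraries alone called 0 of the 10 genes, where Plin2 was at -1.47 (edgeR adjusted p = 0.052) and Abca1 at -1.36 (edgeR adjusted p = 0.092). When libraries were scaled by their size alone, the median of all genes moved by 0.19 and the higher share of all calls from 57.7% to 73%.

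In CX3CR1+ macrophages 3 of 10 genes fell and 0 rose, where 3.47% of all genes were called lower and 2.39% higher. Abca1 went from 149 and 187 CPM to 24.7 and 34.1 CPM, a change of -2.52 on the log2 scale (SE 0.33, edgeR adjusted p = 0.00013). Trem2 fell by 1.38 (SE 0.34, edgeR adjusted p = 0.015), from 45.2 and 36.2 CPM to 15.6 and 15.8 CPM. Apoe changed by -1.0 (SE 0.21, edgeR adjusted p = 0.005), from 1605 and 1314 CPM to 722 and 736 CPM. For all 3 the days did not overlap. The Trem2 call was lost without day 1 replicate 1 (-1.2), day 14 replicate 1 (-1.38) or day 14 replicate 2 (-1.38), each with an edgeR adjusted p of 0.11. The Apoe call was lost with a replicate block, where the change was -0.99, and without the same libraries, at -0.85 (edgeR adjusted p = 0.061), -1.0 (edgeR adjusted p = 0.054) and -1.01 (edgeR adjusted p = 0.052). Of 8 macrophage markers, 6 fell in this comparison, among them C1qb, a subunit of complement C1q, from 158 and 124 CPM to 12.6 and 11.4 CPM. Other markers of the list changed little. Csf1r went from 881 and 950 CPM to 767 and 815 CPM, and Adgre1 from 171 and 184 CPM to 143 and 165 CPM. The part of macrophage markers in the falls of the lipid-handling genes was not tested. Plin2 was measured at 204 and 215 CPM on day 14 against 329 and 311 CPM on day 1 (-0.61, SE 0.21, edgeR adjusted p = 0.066). Gpnmb (-0.73, SE 0.35) and Cd36 (-0.41, SE 0.28) were not called, nor were Lpl, Fabp4, Fabp5 and Abcg1.

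In F4/80- cells Abca1 alone among the 10 fell, where 2.24% of all genes were called lower and 1.01% higher. It went from 25.8 and 28.2 CPM to 3.35 and 4.0 CPM, a change of -2.88 on the log2 scale (SE 0.39, edgeR adjusted p = 0.00041). Plin2 was measured at 131 and 112 CPM on day 1 and 74.7 and 74.3 CPM on day 14 (-0.7, SE 0.21, edgeR adjusted p = 0.06). Fabp4 was at 2 and 0 counts on day 1 and 0 and 8 counts on day 14, and the sign of its difference depended on the library left out.

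In neutrophils 4 of 10 genes, Abca1, Gpnmb, Plin2 and Apoe, fell and 0 rose, where 10.9% of all genes were called lower and 3.15% higher, and the median log2 change of the 10 was -1.23 against -0.015 over all genes. Abca1 was as high in day 1 neutrophils, at 362 and 550 CPM, as in day 1 CD9+ macrophages, and stood at 5.42 and 10.1 CPM on day 14. This was a change of -5.86 on the log2 scale (SE 0.39, edgeR adjusted p = 6.1e-08). Gpnmb went from 9.07 and 8.87 CPM to 0.602 and 0.206 CPM, a change of -4.49 (SE 0.57, edgeR adjusted p = 3.1e-05). Plin2 went from 842 and 836 CPM, its highest values in any group, to 166 and 158 CPM, a change of -2.37 (SE 0.22, edgeR adjusted p = 1.2e-06). Apoe fell by 1.49 (SE 0.22, edgeR adjusted p = 0.00013), from 143 and 104 CPM to 44.9 and 43.0 CPM. In none of these 4 genes did the days overlap.

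The macrophage markers moved with these falls in neutrophils. Of the 8 markers, 6 fell, and their sum went from 462 to 464 CPM down to 144 CPM. In day 1 neutrophil libraries Csf1r lay at 365 and 382 CPM, Adgre1 at 41.3 and 43.6 CPM and C1qb at 9.45 and 5.35 CPM. The day 1 CD9+ libraries held 577 and 940 CPM, 120 and 159 CPM, and 102 and 127 CPM of the same genes. The part of these markers in the falls was not tested. Cd36 had a difference of -1.14 (SE 0.43, edgeR adjusted p = 0.062) and was called without day 1 replicate 1 (-1.49, edgeR adjusted p = 0.033) and with a replicate block (-1.14, edgeR adjusted p = 0.018). Fabp5 had -0.91 (SE 0.26, edgeR adjusted p = 0.018) and met both limits without day 1 replicate 2 (-1.19, edgeR adjusted p = 0.0088). Abcg1 stayed at 53.0 to 68.4 CPM (-0.34, SE 0.24).

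**Figure D4:**
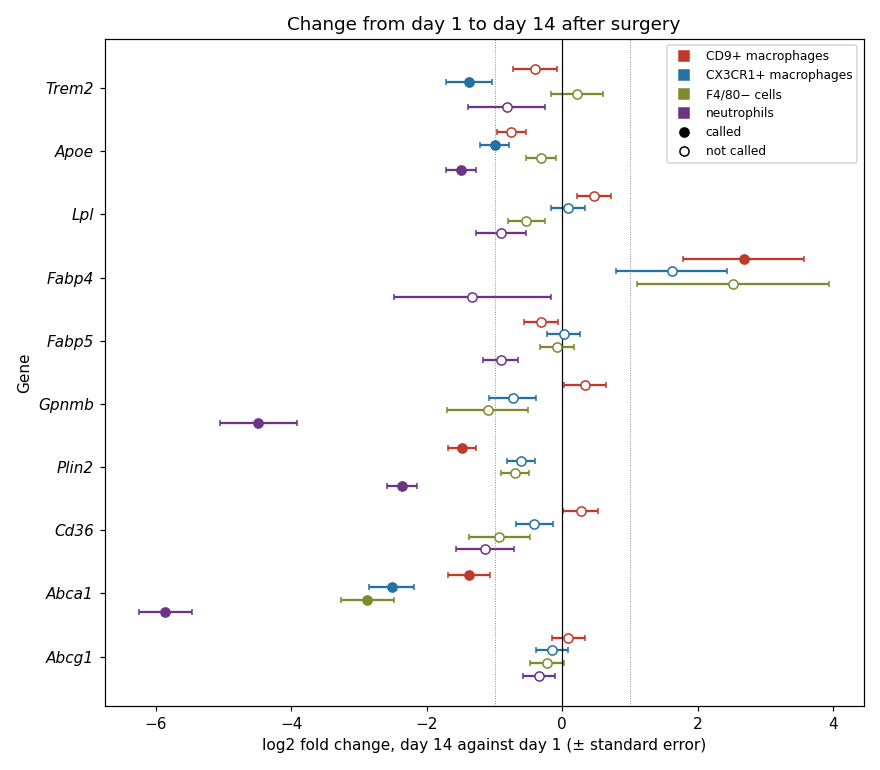
Log2 fold change of each gene from day 1 to day 14 in the 4 populations, with bars of 1 standard error and filled points where the change was called. Abca1 is called lower in all 4 populations, from -1.38 in CD9+ macrophages to -5.86 in neutrophils, and Gpnmb is called lower in neutrophils (-4.49).

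Because Abca1 and Gpnmb had the steepest falls, the 250 bases before their annotated starts are printed from RefSeq, build GRCm38.p6, for the strand of each gene. Of the 10 genes, 6 had a promoter entry. Capitals mark matches to CACGTG, to TATAAA and to AGGTCA repeated directly with 4 bases between and at most 3 mismatches over both copies, the spacing known for LXR sites, each searched on both strands. The Abca1 window is chr4:53159896-53160145 on the minus strand and the Gpnmb window is chr6:49036268-49036517 on the plus strand.
Abca1: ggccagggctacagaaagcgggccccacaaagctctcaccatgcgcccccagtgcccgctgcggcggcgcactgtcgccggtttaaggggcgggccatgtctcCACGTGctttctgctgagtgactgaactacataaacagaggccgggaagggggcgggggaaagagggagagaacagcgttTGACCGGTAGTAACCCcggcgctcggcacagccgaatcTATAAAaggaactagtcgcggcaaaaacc
Gpnmb: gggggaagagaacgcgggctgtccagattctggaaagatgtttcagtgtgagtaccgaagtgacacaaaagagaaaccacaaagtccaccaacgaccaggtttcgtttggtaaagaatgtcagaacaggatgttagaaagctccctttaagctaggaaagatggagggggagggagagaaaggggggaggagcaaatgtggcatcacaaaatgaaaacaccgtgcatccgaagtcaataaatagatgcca
The Abca1 window held CACGTG beginning 147 bases, the direct repeat 67 bases and TATAAA 29 bases before the start. Of 32851 promoter windows of the same length, 6.02% held CACGTG, 12.4% TATAAA and 18.5% the direct repeat. The Gpnmb window had no match. The matches are a description of the letters and say nothing of binding.

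Whether the time changes differed between populations was tested directly. Between CD9+ and CX3CR1+ macrophages 0 of 10 genes passed, where 1.34% of all genes were called higher and 0.933% lower. DESeq2 also called 0 of the 10, where 270 of 11998 genes were called higher and 169 lower. The values lowest in unadjusted p among the 10 were 1.14 for Abca1 (SE 0.44, edgeR adjusted p = 0.2), -0.87 for Plin2 (SE 0.29, edgeR adjusted p = 0.14) and 1.06 for Gpnmb (SE 0.47, edgeR adjusted p = 0.28). The value of Trem2 was 0.97 (SE 0.47, edgeR adjusted p = 0.33), so its fall in CX3CR1+ macrophages was not shown to differ from the value in CD9+ macrophages. With a replicate block, which takes same-numbered libraries of a day as sharing mice, Abca1 passed, at 1.14 (edgeR adjusted p = 0.013). It also passed without CD9+ day 1 replicate 2 (1.61, edgeR adjusted p = 0.041). Plin2 passed without CD9+ day 1 replicate 1 (-1.17, edgeR adjusted p = 0.0069) or CD9+ day 14 replicate 2 (-1.23, edgeR adjusted p = 0.039). When libraries were scaled by their size alone, the higher share of all calls in this test moved from 59% to 82.8%, and with upper quartile scaling to 69.1%. Of 8 macrophage markers, 3 were called higher and 0 lower in this test, with a median of 1.57, and their part was not tested.

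The same difference was then taken between neutrophils and each macrophage population, a pair of comparisons added after the falls in neutrophils had been seen. Against CD9+ macrophages 2 of 10 genes fell more in neutrophils, where 6.7% of all genes were called lower and 1.33% higher. These were Gpnmb, by -4.82 (SE 0.67, edgeR adjusted p = 0.00034), and Abca1, by -4.48 (SE 0.48, edgeR adjusted p = 3.8e-05). Against CX3CR1+ macrophages 3 of 10 fell more, where 7.3% of all genes were called lower and 1.79% higher. These were Gpnmb, by -3.77 (SE 0.71, edgeR adjusted p = 0.0025), Abca1, by -3.34 (SE 0.48, edgeR adjusted p = 0.00032), and Plin2, by -1.76 (SE 0.29, edgeR adjusted p = 0.00097). The neutrophil libraries are shared by both comparisons. Of 8 macrophage markers, 4 were called lower in the first of these differences, with a median of -1.47, and 1 in the second, with a median of -0.28, and their part was not tested.

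The pathway lists placed these changes among their neighbours. The shares of all genes called lower were 3.48% in CD9+, 3.47% in CX3CR1+, 2.24% in F4/80- cells and 10.9% in neutrophils, and those called higher were 4.75%, 2.39%, 1.01% and 3.15%. Hilpda, of the lipid droplet list, fell in all 4 populations, with log2 changes of -3.41 (SE 0.4) in CD9+ macrophages, -2.25 (SE 0.44) in CX3CR1+ macrophages, -1.67 (SE 0.43) in F4/80- cells and -4.62 (SE 0.39) in neutrophils. It was measured at 156 and 172 CPM in day 1 neutrophils and at 6.74 and 6.59 CPM on day 14. The whole list of 13 tested genes had 3 that rose and 1 that fell in CD9+, 1 that rose and 2 that fell in CX3CR1+, 0 and 1 in F4/80- cells, and 2 and 3 in neutrophils. Spp1 also fell in every population, at -2.92 (SE 0.23), -4.91 (SE 0.27), -2.82 (SE 0.25) and -4.42 (SE 0.26) in the same order.

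Of the 10 tested uptake receptors, 6 fell and 0 rose in neutrophils, beside 10.9% and 3.15% of all genes, led by Stab1 (-2.82, SE 0.43), Msr1, the class A scavenger receptor (-2.78, SE 0.33), and Lrp1, a receptor for remnant lipoproteins (-2.63, SE 0.25). In CX3CR1+ macrophages 4 fell and 0 rose, among them Stab1 (-4.14, SE 0.42) and Olr1 (-1.81, SE 0.29). In CD9+ macrophages 1 rose and 2 fell, namely Olr1 (1.06, SE 0.25), Msr1 (-1.46, SE 0.22) and Lrp1 (-1.25, SE 0.23), and in F4/80- cells 0 rose and 2 fell. The time changes of Stab1 (3.85, SE 0.53, edgeR adjusted p = 0.0012) and Olr1 (2.86, SE 0.38, edgeR adjusted p = 0.00094) differed between CD9+ and CX3CR1+ macrophages.

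Among the 13 tested genes of the TREM2 list, 2 rose and 2 fell in CD9+, 0 rose and 5 fell in CX3CR1+, 2 fell in F4/80- cells and 4 fell in neutrophils. Cd63 moved in opposite directions, by 1.19 (SE 0.19) in CD9+ and -2.01 (SE 0.26) in CX3CR1+ macrophages, and these changes differed by 3.2 (SE 0.32, edgeR adjusted p = 0.00017). Of 8 eosinophil markers, 7 rose in CD9+ and 1 in CX3CR1+ macrophages, 0 fell in either, and their part was not tested. Tyrobp was not called, at -0.44 (SE 0.16) in CD9+ and -0.08 (SE 0.15) in CX3CR1+ macrophages. Among the 13 tested LXR and PPAR genes, 1 rose and 1 fell in CD9+, 1 fell in CX3CR1+, 1 in F4/80- cells and 5 in neutrophils. Pltp rose in CD9+ macrophages from 26.9 and 29.7 CPM to 129 and 232 CPM (2.68, SE 0.34, edgeR adjusted p = 0.00012), a direction opposite to that of Abca1 in the same libraries. Nr1h3 fell in CX3CR1+ macrophages (-1.98, SE 0.51, edgeR adjusted p = 0.019) and neutrophils (-2.23, SE 0.78, edgeR adjusted p = 0.044). Of the 12 fatty acid oxidation genes, Slc25a20, a carnitine carrier, fell in CD9+ macrophages (-1.0, SE 0.21), and 0 of the 12 were called in the other 3 populations. Of the 12 lysosomal lipid genes 0 were called in any population.

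The last comparison placed the CD9+ macrophages beside the non-macrophage sorts of the same day. All 10 genes were higher than in F4/80- cells on both days, where 9.23% of all genes were called higher and 6.16% lower on day 1 and 6.59% and 1.11% on day 14. The median log2 difference of the 10 was 3.64 and 3.76, against 0.007 and 0.008 over all genes. The widest gaps were in Apoe on day 1 (5.76, SE 0.25) and Gpnmb on day 14 (7.03, SE 0.48), and the narrowest were in Fabp5 on day 1 (1.69, SE 0.25) and Plin2 on day 14 (1.12, SE 0.21). All 8 macrophage markers were higher as well on both days. The Plin2 call on day 14 was lost without CD9+ replicate 2 (0.72, edgeR adjusted p = 0.06). For Fabp4 the counts were 18 against 2 on day 1 and 103 against 8 on day 14 over 2 libraries each, ratios of 16.1 (exact 95% interval 3.86 to 143) and 16.5 (8.07 to 39.3). Fabp4 was admitted to the test through day 14 macrophages, so its day 14 value is a description and the count of that day is 9 of 9 without it. The day 1 Fabp4 call was lost without CD9+ replicate 2 (3.35, edgeR adjusted p = 0.12), F4/80- replicate 1 (6.39, edgeR adjusted p = 0.058) or F4/80- replicate 2 (2.88, edgeR adjusted p = 0.19). That of day 14 was lost without CD9+ replicate 2 (3.22, edgeR adjusted p = 0.15) or F4/80- replicate 1 (2.94, edgeR adjusted p = 0.12). On day 1 the higher share of all calls moved from 60% to 39.2% with scaling by library size only.

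Against neutrophils, 6 of 10 genes were higher in CD9+ macrophages and 0 lower on day 1, where 27.9% of all genes were called higher and 21.7% lower. Trem2 (4.67, SE 0.42), Lpl (4.47, SE 0.31), Cd36 (4.83, SE 0.33), Apoe (3.92, SE 0.23), Gpnmb (2.56, SE 0.34) and Fabp5 (1.07, SE 0.25) were the 6. The Fabp5 call was lost without CD9+ replicate 2 (0.89, edgeR adjusted p = 0.011) or neutrophil replicate 2 (0.8, edgeR adjusted p = 0.026). Abca1 (0.03, SE 0.3) and Abcg1 (0.09, SE 0.24) lay close to 0, and Plin2 (-0.89, SE 0.21, edgeR adjusted p = 0.0013) was under the size needed for a call. Plin2 met both limits without CD9+ replicate 2 (-1.27, edgeR adjusted p = 5.3e-05). On day 14, 8 of 10 (7 without Fabp4, which was admitted through this CD9+ group) were higher and 0 lower, against 29.6% and 19.9% of all genes. Abca1 then differed by 4.51 (SE 0.38, edgeR adjusted p = 7.6e-08) and Gpnmb by 7.38 (SE 0.52, edgeR adjusted p = 1.3e-08). Plin2 (0.0, SE 0.21) and Abcg1 (0.52, SE 0.24) were not called. Scaling by library size only moved the median of all genes by 0.33 on day 1 and 0.49 on day 14, and the higher share of calls from 56.2% to 68.2% and from 59.8% to 78.2%. It made Abcg1 on day 14 a call, at 1.01.

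Genes outside the set with a pattern like that of Trem2 over the 8 group means were Tnfrsf11a (Pearson r 0.994), which encodes the receptor RANK, Chst1 (0.992), Renbp (0.992), Pkd2 (0.988) and Rasgef1b (0.984). Within the set, the gene most like Trem2 was Lpl (0.97), the one most like Apoe was Fabp5 (0.98), and the one most like Gpnmb was Cd36 (0.94). Plin2 was least tied to the others, with a median correlation of 0.48 and Abca1 as its nearest (0.84). Abca1 was nearest to Gpnmb (0.87), and Fabp4 (0.78) and Abcg1 (0.78) were both nearest to Apoe. Each value rests on 8 group means and is given as a description.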

How the data were processed

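The authors prepared libraries from pooled sorted cells with a stranded SMART-Seq kit and sequenced them as paired ends. They trimmed the reads, aligned them with STAR to mm10, and deposited raw exon counts per gene on the Gencode M23 annotation. Here the counts were tested with edgeR 4.0.16 in R 4.3.3 (limma 3.58.1) by its quasi-likelihood test, with TMM scaling and 1 model of 8 group means over 16 libraries. Genes were kept where the mean CPM of at least 1 group reached 3, which left 11998 of 20200. Calls needed a Benjamini-Hochberg adjusted p under 0.05 and a log2 fold change of at least 1 in size. Exact permutation of 2 against 2 libraries cannot go below p = 0.333, so single-gene permutation tests were not used. The p-values rest on the spread between pools within groups, with an estimate shared over all 8 groups. The day 1 CD9+ pair was wider than this, with an SD of log2 differences of 0.912 against 0.382 to 0.625 in the other groups. Day cannot be told apart from any handling or sequencing batch that went with it.

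The 10 genes, the pathway lists and the marker lists were chosen with earlier results of these data known. The text names all 10 genes in each comparison, the 5 genes most correlated with Trem2, the nearest of the 10 for the others, and up to 4 called genes with the largest changes per pathway list and comparison. Tyrobp, the single markers of macrophages, osteoclasts and platelets, and the gate genes Cd9 and Cx3cr1 were named outside this rule, after their values had been seen. Exon lengths per gene came from Gencode M21. Alternatives were DESeq2 1.42.0, library size only and upper quartile scaling, other filters, the compared libraries alone, a replicate block, a test against a 1.5-fold change (glmTreat), no fold change limit, and leaving out each library in turn. Of the marker lists, dendritic cell, endothelial, fibroblast, osteoclast and adipocyte sums in CD9+ libraries were 9.12 to 28.2, 42.2 to 61.3, 5.28 to 44.1, 200 to 427 and 96.1 to 122 CPM, with 2 of 8 adipocyte markers analysed here. The adipocyte sum rested on Adipor2, at 96.1 to 122 CPM in CD9+ libraries and 242 to 265 CPM in neutrophils. Retn, the other marker, was at no more than 0.288 CPM in CD9+ libraries.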

Additional observations from a re-analysis of the deposited data

Results flagged for a closer look

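The change from day 1 to day 14 was compared between neutrophils and each macrophage population, by a test of the difference itself that was added after the data had been seen. Against CD9+ macrophages 2 of the 10 genes fell more in neutrophils, where 6.7% of all genes were called lower and 1.33% higher. Against CX3CR1+ macrophages 3 of the 10 did, where 7.3% were called lower and 1.79% higher. For Gpnmb the difference on the log2 scale was -4.82 against CD9+ and -3.77 against CX3CR1+ macrophages. For Abca1 it was -4.48 and -3.34, and for Plin2 it was -1.76 against CX3CR1+ macrophages, while Plin2 was not called against CD9+ macrophages. Macrophage markers moved with these tests, with 4 of 8 called lower against CD9+ (median -1.47) and 1 of 8 against CX3CR1+ macrophages (median -0.28), and their part was not tested. All 5 values kept their call in each of the fits that left out 1 library.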

How the results depend on the processing

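Requiring a mean of 3 CPM in every group left 5 of the 10 genes, Apoe, Fabp5, Plin2, Abca1 and Abcg1, among 7687 tested, and the counts called were then 1 on each day for CD9+ against CX3CR1+ macrophages, 5 on each day against F4/80- cells, 2 on day 1 and 3 on day 14 against neutrophils, and 1 for the difference in time change between neutrophils and CD9+ macrophages. Of the 7687 genes, 247 and 423, 469 and 286, and 1678 and 1677 were called higher in the same 6 comparisons, and 397 lower in the last. That last difference gave 5 with DESeq2 and 5 with library size only, where Lpl, Cd36 and either Fabp4 or Plin2 were added. Over all 11998 genes, 959 and 1039 were called lower in these fits, against 804 in the main fit. The time change in CD9+ macrophages gave 0 with the compared libraries alone and 1 with the test against a 1.5-fold change. Over all genes, 155 were then called higher and 175 lower with the compared libraries alone, and 252 and 281 with that test, against 570 and 418 in the main fit. The time change in CX3CR1+ macrophages gave 1 with the same test, where 126 of all genes were called higher and 263 lower, against 287 and 416. The cause was not tested. Single values that turned sign under another scaling or fit, none of them called, were Abca1 in CD9+ macrophages against neutrophils on day 1 with DESeq2 (-0.01), Abcg1 in CD9+ against CX3CR1+ macrophages on day 1 with library size only (-0.17), and Fabp5 over time in CX3CR1+ macrophages with upper quartile scaling (-0.01) and with the compared libraries alone (-0.01).

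Same-numbered libraries were compared through their deviations from group means, with correlations of 0.013 to 0.144 over 12 pairs, 3 of them over 0.1. The 30 mice of the study were fewer than separate pools of 5 to 7 for 16 libraries would need, so populations of a day shared mice, but no label says that a number marks 1 pool. The block is therefore given as an alternative. With a replicate block within each day, the test of the time change between CD9+ and CX3CR1+ macrophages gave 1 call, Abca1 at 1.14 (edgeR adjusted p = 0.013), where the unblocked fit gave 0. The block lost Fabp4 over time in CD9+ macrophages (2.56, edgeR adjusted p = 0.068) and Apoe in CX3CR1+ macrophages (-0.99, edgeR adjusted p = 0.0017). It added Cd36 over time in neutrophils (-1.14, edgeR adjusted p = 0.018) and for neutrophils against CD9+ macrophages (-1.37, edgeR adjusted p = 0.032), and changed no other call.

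With each library left out in turn, the calls among the genes of the set changed for the time change in CD9+ and in CX3CR1+ macrophages. They also changed for the difference between these, and for the difference between neutrophils and CD9+ macrophages. The latter gained Apoe, Lpl, Plin2 and Cd36 without CD9+ day 14 replicate 1. The calls among all genes in these fits are not given here. A change particular to the set therefore cannot be told from a general one. The signs of uncalled values turned as follows. Over time in CD9+ macrophages Trem2 ran from -1.04 to 0.07, Lpl from -0.02 to 0.87, Fabp5 from -0.72 to 0.02, Gpnmb from -0.3 to 0.79, Cd36 from -0.12 to 0.6 and Abcg1 from -0.45 to 0.5. Over time in CX3CR1+ macrophages Lpl ran from -0.14 to 0.34, Fabp5 from -0.2 to 0.28 and Abcg1 from -0.35 to 0.02, and in F4/80- cells Fabp4 ran from -2.65 to 5.12. In CD9+ against CX3CR1+ macrophages Fabp4 ran from -0.82 to 0.2 on day 1 and from -0.03 to 1.21 on day 14, Fabp5 from -0.39 to 0.35 on day 14 and Abcg1 from -0.24 to 0.71 on day 14. Against neutrophils Fabp4 ran from -0.35 to 0.54 and Abca1 from -0.44 to 0.38 on day 1, and Abcg1 from -0.01 to 0.94 on day 14. In the difference of time change between CD9+ and CX3CR1+ macrophages Apoe ran from -0.17 to 0.61, Lpl from -0.11 to 0.79, Fabp5 from -0.73 to 0.01 and Abcg1 from -0.29 to 0.66. Between neutrophils and CD9+ macrophages Trem2 ran from -1.67 to 0.25 and Abcg1 from -0.82 to 0.13, and between neutrophils and CX3CR1+ macrophages Trem2 ran from -0.69 to 1.15 and Abcg1 from -0.33 to 0.04. Where a group kept 1 library, it was assumed to vary like the others. At 9233952 to 19814119 counts per library, depth limits Fabp4 most.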
